A study of Mus musculus with 108 samples.

Results

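Fos-high and Fos-low acinar cells are single acinar cells from the 2 ends of a ranking by the level of Fos, taken from the mouse pancreas. Acinar cells are the enzyme-secreting cells of the exocrine gland. The cells were chosen by their measured Fos value alone, in TPM, the share of reads per transcript length, with ties given to the lower cell number. The Fos-high group holds the 27 highest cells and the Fos-low group the 27 lowest, so 54 cells are members and the other 54 cells of the series lie between them. Those middle cells, in ranks 28 to 54 and ranks 55 to 81, are given for comparison. Since Fos set the groups, its own difference is a description, and the levels of the other genes describe how they lay along the same ranking.

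All cells of both groups carried the same labels. They were untreated acinar cells from the pancreas of male C57Bl/6 mice aged 12 weeks, and no genetic change or agent was named. Mice were perfused, the gland was digested with collagenase and strained, and acini were split into single cells with Accutase before each cell was lysed and its cDNA amplified by a modified SMART-seq2 procedure. The labels name no animal, day or plate and give no time from digestion to lysis for any cell, so all cells form 1 labelled group. A cell is not a replicate of a condition, and the differences are described with no significance test. The spread given is the spread between cells, which holds biological and technical variation that cannot be told apart.

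Fos is the founding member of the AP-1 family. Fos and Jun proteins pair into a dimer that binds AP-1 sites in DNA, and Atf3, of the related ATF branch, can join Jun in such dimers. Fos, Egr1, Jun and their kind are immediate-early genes: their transcription is switched on within minutes of growth factors, calcium signals or stress without the need for new protein, through serum response factor at CArG boxes and CREB at cAMP response elements (CRE), and their mRNAs are short-lived. Several of the genes switched on with them, such as Dusp1, Zfp36 and Socs3, encode inhibitors of the same signals. In the pancreas they are known to respond to secretagogues, to injury, and to the enzymatic dissociation of the tissue.

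The acinar label held in both groups. All 10 acinar markers were detected, at or above 1 TPM, in every Fos-high and every Fos-low cell, and their summed level had a median of 454830 TPM in Fos-high cells and 455654 TPM in Fos-low cells. The number of genes detected had a median of 4249 in Fos-high cells (3510 to 6946) and 4090 in Fos-low cells (2983 to 4739). The read depth of a cell cannot be had from TPM and is unknown. Of the markers of other cell types, 3 or more endothelial markers were detected in 1 Fos-high cell (cell 40, summed level 74.5 TPM) and in no Fos-low cell (highest sum 0.93 TPM). For stellate and fibroblast cells, 3 or more were detected in 1 Fos-high cell (cell 96, 18.3 TPM), and all 8 were at 0 in the Fos-low cells. No Fos-high or Fos-low cell had more than 1 macrophage marker, and lymphocyte markers reached at most 0.29 TPM in Fos-high cells and 0.14 TPM in Fos-low cells. Endocrine markers summed to at most 0.35 TPM in Fos-high cells and 8.84 TPM in Fos-low cells, and erythrocyte markers were at 0 in Fos-high cells and at most 1.92 TPM in Fos-low cells. Ductal markers had a median sum of 35.8 TPM in Fos-high cells (17.2 to 354) and 29.4 TPM in Fos-low cells (14.3 to 43.4). Unlike the markers of the other cell types, 3 or more of the 10 ductal markers were detected in most cells. This held for 22 Fos-high and 17 Fos-low cells, with a median of 3 markers in both groups. The most detected in 1 cell was 7 in Fos-high cells and 4 in Fos-low cells.

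The groups were unevenly drawn from the numbered cells. Of 47 cells numbered 1 to 48, 5 were Fos-high and 19 Fos-low. Of 40 cells numbered 49 to 91, 13 were Fos-high and 7 Fos-low. Of 21 cells numbered from 92 on, whose deposited values sum to between 788380 and 990520 rather than 1000000, 9 were Fos-high and 1 was Fos-low. What the numbers stand for is not given in the labels, so the main differences are also given within the first and the second of these sets, while the last held too few Fos-low cells for a comparison.

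Fos (ENSMUSG00000021250; GRCm38 chr12:85473890-85477273, forward strand) showed no gap at either bound of the ranking. Its level was 60.3, 157 and 296 TPM in Fos-high cells (lowest, median and highest) and 0, 1.5 and 7.27 TPM in Fos-low cells. The mean was 159 ± 65.9 TPM in Fos-high cells and 2.41 ± 2.4 TPM in Fos-low cells (SD over 27 cells each). The median was 37.2 TPM over ranks 28 to 54 and 12.3 TPM over ranks 55 to 81. At the upper bound, the last cell inside the Fos-high group had 60.3 TPM and the next cell outside it 60.1 TPM. At the lower bound, the first cell inside the Fos-low group had 7.27 TPM and its neighbour outside 7.53 TPM. The groups are thus ends of a continuous range. Fos was listed at 0 in 6 Fos-low cells, numbered 27, 31, 37, 41, 48 and 52.

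Atf3 (ENSMUSG00000026628; GRCm38 chr1:191170296-191218039, reverse strand) encodes a stress-induced partner of the AP-1 family and was close to on or off at the 2 ends of the ranking. Its level was 0, 20.2 and 139 TPM in Fos-high cells and 0, 0 and 2.27 TPM in Fos-low cells (lowest, median and highest). It was detected in 26 of 27 Fos-high cells (96.3%, exact 95% binomial interval 81% to 99.9%) and 1 of 27 Fos-low cells (3.70%, 0.0937% to 18.97%). Such intervals cover counting error only. In 26 Fos-high cells Atf3 lay above every Fos-low cell, and in the exception, cell 68, it was listed at 0. The median was 2.41 TPM over ranks 28 to 54 and 0 over ranks 55 to 81. Atf3 was detected in 20 cells of ranks 28 to 54 and 5 cells of ranks 55 to 81, so its detection was graded along the ranking.

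**Figure D1:**
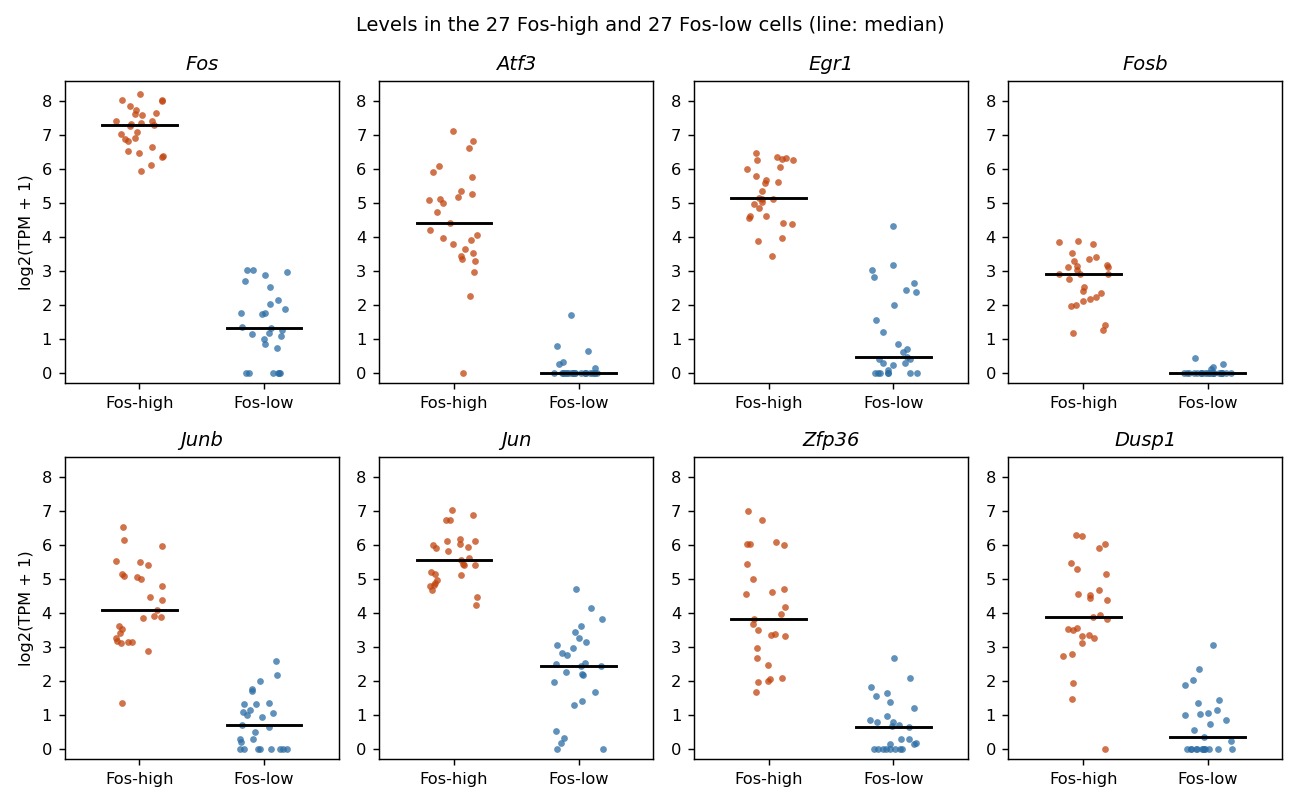
Level of 8 immediate-early genes in single cells, as log2(TPM + 1), with Fos-high cells on the left and Fos-low cells on the right of each panel. Each point is 1 cell (27 per group) and the line is the group median; Fos and Fosb do not overlap between the groups, and the other 6 genes overlap in a few cells.

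Differences between the groups are given as the difference of mean log2(TPM + 1), Fos-high minus Fos-low, and a difference of 1 or more on this scale is called 2-fold. The scale understates the change of low genes. Of 7227 genes detected in at least 11 cells, 56 were at least 2-fold higher in Fos-high cells (0.775%) and 3 were at least 2-fold lower (0.0415%). The median difference over all 7227 genes was 0.06. Of the 56 higher genes, 19 are on the AP-1 or the other immediate-early list, 11 are on another list and 26 are on none. They encode proteins in 44 cases. The count was 39 without the 6 cells that had Fos at 0, of which 38 are among the 56, and 53 without cells 40 and 96. It was 270 with a pseudocount of 0.1 TPM and 16 with one of 10 TPM in place of 1 TPM, and 33 after each gene was adjusted for the number of genes detected per cell.

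**Figure D2:**
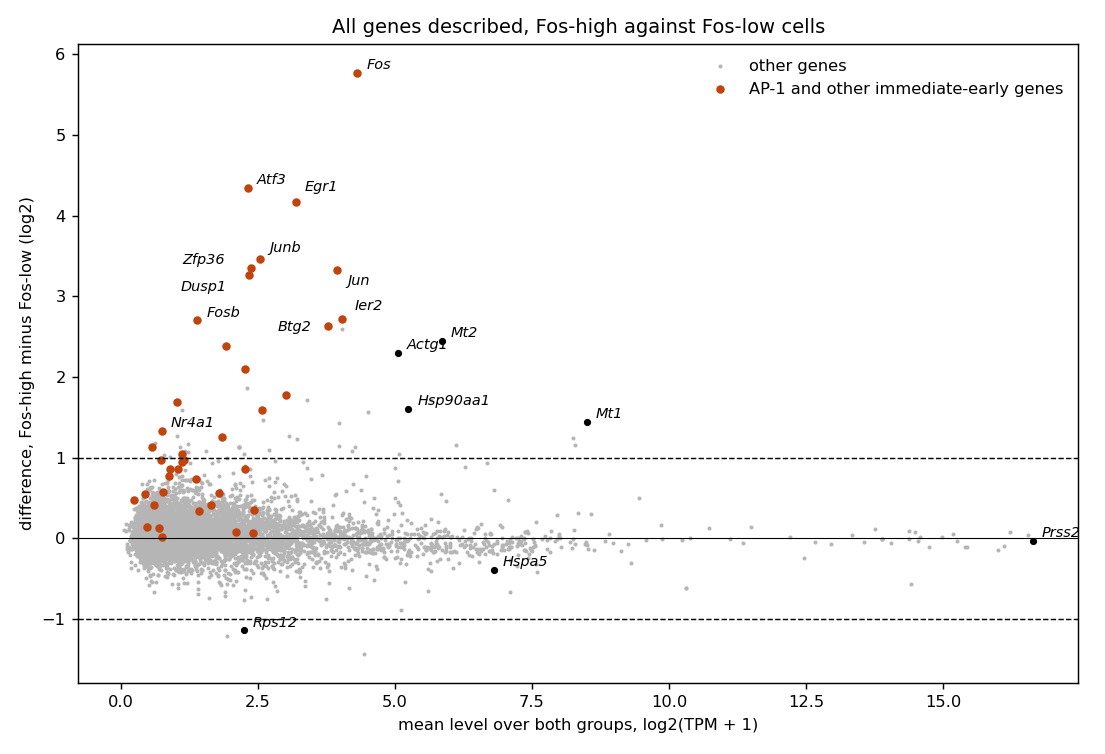
Difference of mean log2(TPM + 1), Fos-high minus Fos-low, against the mean level over both groups, for all 7227 genes described. AP-1 and other immediate-early genes are in orange, other labelled genes in black, and dashed lines mark 2-fold. The highest points are Fos, Atf3 and Egr1, while only 3 genes lie below the lower line.

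Most of the AP-1 genes that could be described were higher in Fos-high cells. Of the 15 genes on the list, 7 were expressed widely enough to be described. One of the 7 is Fos, whose difference was fixed by the ranking. Of the other 6, 4 were at least 2-fold higher in Fos-high cells, against 0.775% of all genes, and their median difference was 3.01. Fosb, a close relative of Fos, was 1.26, 6.5 and 13.7 TPM in Fos-high cells and 0, 0 and 0.35 TPM in Fos-low cells. It was detected in all 27 Fos-high cells (exact 95% interval 87.2% to 100%) and in 0 of 27 Fos-low cells, a count of 0 that allows a share of up to 11.1% (3 counts) or 12.8% (exact upper limit). The groups did not overlap for Fosb. Among the 56 higher genes this held only for Fosb and for Fos, which the ranking fixed. Overlap was not counted over all 7227 genes. Jun, the main dimer partner of Fos, was 17.9, 46.2 and 129 TPM in Fos-high cells and 0, 4.44 and 24.9 TPM in Fos-low cells. In 24 Fos-high cells Jun was above every Fos-low cell. Junb, a Jun relative that restrains Jun in some settings, was 1.55, 15.8 and 91.4 TPM in Fos-high cells and 0, 0.62 and 4.94 TPM in Fos-low cells, and 26 Fos-high cells lay above the Fos-low range. The differences were 3.32 for Jun, 3.46 for Junb and 2.70 for Fosb. Jund, the member that is least dependent on stimulation, differed by 0.97 and Mafk, a small Maf protein, by 0.57, both under 2-fold. Batf and Mafg were seen in few cells of either group, and Fosl1, Fosl2, Maff, Jdp2 and Batf3 in none of them at or above 1 TPM. Without Fos, the summed level of the other 6 genes was 99.5 TPM in the median Fos-high cell (40.8 to 274) and 5.41 TPM in the median Fos-low cell (0.56 to 29).

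Among the other immediate-early transcription factors, Egr1, a zinc-finger factor, was 9.95, 34.8 and 87.8 TPM in Fos-high cells and 0, 0.40 and 18.9 TPM in Fos-low cells. It was detected in all 27 Fos-high cells and 10 of 27 Fos-low cells, and the Fos-low maximum belonged to 1 cell, cell 1, with the next at 8.03 TPM. Its difference was 4.17. Ier2, a nuclear protein of the early response, was 14.8, 42 and 139 TPM in Fos-high cells and 0.34, 5.70 and 16.3 TPM in Fos-low cells, and was present in 25 Fos-low cells. Klf6, a Krüppel-like factor, had medians of 6.27 TPM in Fos-high cells and 0.74 TPM in Fos-low cells. Egr2, a relative of Egr1, and Nr4a1, an orphan nuclear receptor, were sparse. Each was detected in 13 of 27 Fos-high cells (48.1%, exact interval 28.7% to 68.1%) and in no Fos-low cell. Egr2 was listed at 0 in every Fos-low cell.

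Several other genes, among them the inhibitors Dusp1, Zfp36 and Socs3, were higher in Fos-high cells, though not in every one. No list of inhibitors was described. Zfp36, which binds AU-rich mRNAs and hastens their decay, was 2.20, 13.1 and 128 TPM in Fos-high cells and 0, 0.56 and 5.35 TPM in Fos-low cells, a difference of 3.35. Dusp1, a phosphatase that switches off MAP kinases, was 0, 13.7 and 78.2 TPM in Fos-high cells and 0, 0.27 and 7.25 TPM in Fos-low cells, a difference of 3.27. Cell 68, with Atf3 listed at 0, was also the Fos-high cell with Dusp1 listed at 0. Btg2, an anti-proliferative gene, was 9.83, 33.9 and 119 TPM in Fos-high cells and 0.06, 5.38 and 24.6 TPM in Fos-low cells. Only 18 Fos-high cells exceeded every Fos-low cell for Btg2, so its groups overlapped more than those of Jun or Egr1. Socs3, an inhibitor of cytokine receptor signalling, was detected in 18 Fos-high cells (66.7%, exact interval 46% to 83.5%) and 0 Fos-low cells. Ppp1r15a, the GADD34 subunit that restores translation after stress, had medians of 8.63 TPM in Fos-high cells and 1.16 TPM in Fos-low cells. The kinase Sgk1 differed by 1.77, Gadd45g by 1.59, Zfp36l1 by 1.25 and the pseudokinase Trib1 by 1.05.

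Over the whole list of other immediate-early genes, 33 of 64 were described, 14 of these were at least 2-fold higher in Fos-high cells and none was lower. The median difference was 0.86 and all 33 were above 0, against 4505 of 7227 genes in all. Egr2, Nr4a1 and Socs3 met the filter of 11 cells only through the Fos-high group, so their direction was largely fixed by it. Egr2 was detected in 14 cells in all and Nr4a1 in 17, of which 13 each were Fos-high. Socs3 was detected in 28 cells, 18 of them Fos-high. Not every classical member was past 2-fold. Myc differed by 0.56, Klf4 by 0.55, Mcl1 by 0.41, Nr4a2 by 0.13 and Cebpb by 0.01, all under 2-fold. Egr3, Npas4, Ereg, Areg and Nr4a3 were detected in no cell of either group, and Arc, best known as an activity-induced gene of neurons, in 5 Fos-high cells and 0 Fos-low cells. Of the 39 AP-1 and other immediate-early genes described besides Fos, the median Fos-high cell had 29 (23 to 39) and the median Fos-low cell 16 (7 to 24). The medians were 23 over ranks 28 to 54 and 20 over ranks 55 to 81.

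**Figure D3:**
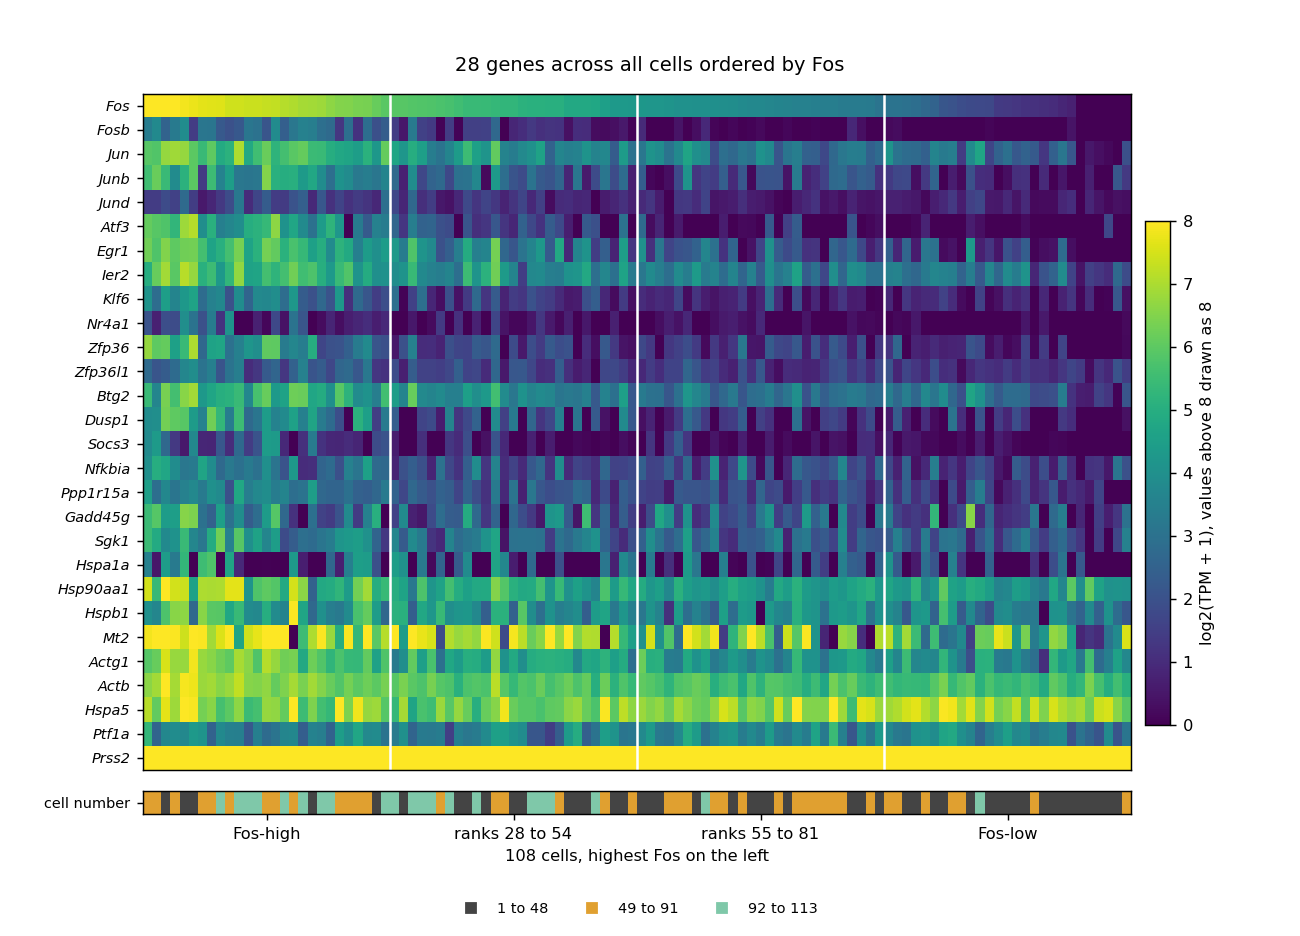
Levels of 28 genes (rows, log2(TPM + 1)) in every cell, ordered from the highest Fos on the left to the lowest on the right, with white lines between the 4 rank groups and a bar of the set of cell numbers below. Fosb, Jun, Atf3, Egr1 and Zfp36 fade from left to right, whereas Ptf1a shows no such gradient and Prss2 is above the colour scale throughout.

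For Egr1 and Jun the largest step in TPM lay between the Fos-high cells and ranks 28 to 54. Egr1 had medians of 34.8 TPM in Fos-high cells, 10.0 TPM over ranks 28 to 54, 3.08 TPM over ranks 55 to 81 and 0.40 TPM in Fos-low cells, and Jun 46.2, 12.6, 7.93 and 4.44 TPM over the same 4 rank groups. Of the 56 higher genes, 29 had all 4 medians in the order of Fos. Over all cells, the genes most like Fos among those detected in at least 54 cells included Jun (Spearman rho 0.85), Egr1 (0.83), Btg2 (0.79), Ier2 (0.77), Junb (0.76), Ppp1r15a (0.73), Zfp36 (0.72), Klf6 (0.69) and Actb (0.69). Fosb (0.87) and Atf3 (0.81) were detected in fewer cells. Over the 54 middle cells, which belong to neither group, rho with Fos was 0.70 for Fosb, 0.62 for Btg2, 0.60 for Jun, 0.56 for Egr1 and 0.53 for Atf3, but 0.24 for Junb, 0.20 for Dusp1 and 0.09 for Zfp36. These correlations are over single cells that share animals and preparation in ways the labels do not give, and are descriptions.

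Fos-high cells also differed among themselves. Within the 27 cells, rho with Fos was 0.77 for Actb, 0.73 for Pnrc1, 0.72 for Egr1, 0.71 for Zfp36 and 0.68 for Atf3, but 0.36 for Fosb and 0.28 for Btg2. Egr1 followed Klf6 (0.74) and Ier2 (0.73) within these cells. The heat shock gene Hspa1a did not follow the set: its rho was 0.20 with Fos, 0.07 with Egr1 and −0.03 with Atf3, but 0.63 with Hsp90aa1 and 0.54 with Nfkbia. Cell 38 had the highest Atf3 at 139 TPM with Hspa1a at 0, and cell 64 had the highest Hspa1a at 54.4 TPM with Atf3 at 32.9 TPM. Both were high in cell 8, with Atf3 at 114 TPM and Hspa1a at 38.5 TPM.

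The 6 cells with Fos at 0 had several of the leading genes listed at or near 0, while others were detected. Of the 39 immediate-early genes besides Fos, 7 to 16 were detected in each, against a median of 16 over all Fos-low cells. In all 6, Fosb and Egr1 were listed at 0, and Jun was at most 2.91 TPM, Dusp1 at most 0.27 TPM and Zfp36 at most 0.12 TPM. Atf3 was at 0 in 5 of them and at 2.27 TPM in cell 41, the highest Atf3 of any Fos-low cell. Junb reached 3.46 TPM and Ier2 5.7 TPM in cell 48, and Btg2 3.3 TPM in cell 52. The enzyme genes were high in these cells. Prss2, the main anionic trypsinogen, was between 94919 and 118437 TPM, Actb was between 30.9 and 85 TPM, and digestive enzymes took 86% to 91.3% of TPM. They had 2983 to 4270 genes detected.

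Beyond the immediate-early lists, a pair of actin genes was among the 56. The naming rule took Actg1 for its difference and Actb for its correlation with Fos, so both were picked by their values. No list of cytoskeletal genes was described. Actg1, cytoplasmic gamma-actin, was 22.7, 73.7 and 232 TPM in Fos-high cells and 1.07, 12.2 and 47.6 TPM in Fos-low cells, a difference of 2.30. Actb, cytoplasmic beta-actin and often used as a housekeeping reference, was 55.8, 94.6 and 295 TPM in Fos-high cells and 28.9, 42.8 and 85 TPM in Fos-low cells, a difference of 1.16. Among the genes on no list, Sat1, which catabolises polyamines, differed by 1.71, the splicing kinase Clk1 by 1.47, the coregulator Pnrc1 by 1.23 and the RNA helicase Ddx5 by 1.13.

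Metallothioneins and part of the heat shock response were also higher. Mt2, a metal-binding protein induced by zinc, glucocorticoids and stress, was 0, 208 and 399 TPM in Fos-high cells and 0.80, 21.7 and 212 TPM in Fos-low cells, and its close relative Mt1 had medians of 811 TPM in Fos-high cells and 227 TPM in Fos-low cells. Both overlapped widely, and the differences were 2.45 and 1.45. These were the 2 genes past 2-fold among 12 described of the oxidative and metal stress list, against 0.775% of all genes, where Hmox1 differed by 0.26 and Txnrd1 by 0.13. Of 22 heat shock genes described, 6 were at least 2-fold higher, against 0.775% of all genes: Hsp90aa1, the inducible HSP90 (1.61), the small heat shock protein Hspb1 (1.43), the inducible HSP70 gene Hspa1a (1.08), and the J-domain co-chaperones Dnaja1 (1.27), Dnajb4 (1.13) and Dnajb1 (1.07). Hsp90aa1 had medians of 64.4 TPM in Fos-high cells and 19.1 TPM in Fos-low cells. Hspa1a was detected in 13 Fos-high cells and 11 Fos-low cells, and its highest level was 54.4 TPM in Fos-high cells and 16.1 TPM in Fos-low cells. The other 16 stayed within 2-fold, among them Hsph1 (−0.28) and Hspd1 (−0.14). Hspa1a shares near-identical sequence with Hspa1b (0.22), between which reads can be split, so both values are uncertain.

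The NF-kB targets were led by their own inhibitor. Nfkbia, which encodes IkB-alpha and holds NF-kB in the cytoplasm, was 1.04, 7.92 and 30.7 TPM in Fos-high cells and 0, 1.35 and 9.76 TPM in Fos-low cells, a difference of 1.86. Irf1 (1.04) and Nfkbiz (1.01) were also past 2-fold, which makes 3 of 8 described, against 0.775% of all genes. The cytokines Tnf, Il6, Ccl2, Cxcl1, Cxcl2 and Cxcl5 were detected in no cell of either group, and Tnfaip3 and Icam1 each in 1 Fos-high cell and 0 Fos-low cells.

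**Figure D4:**
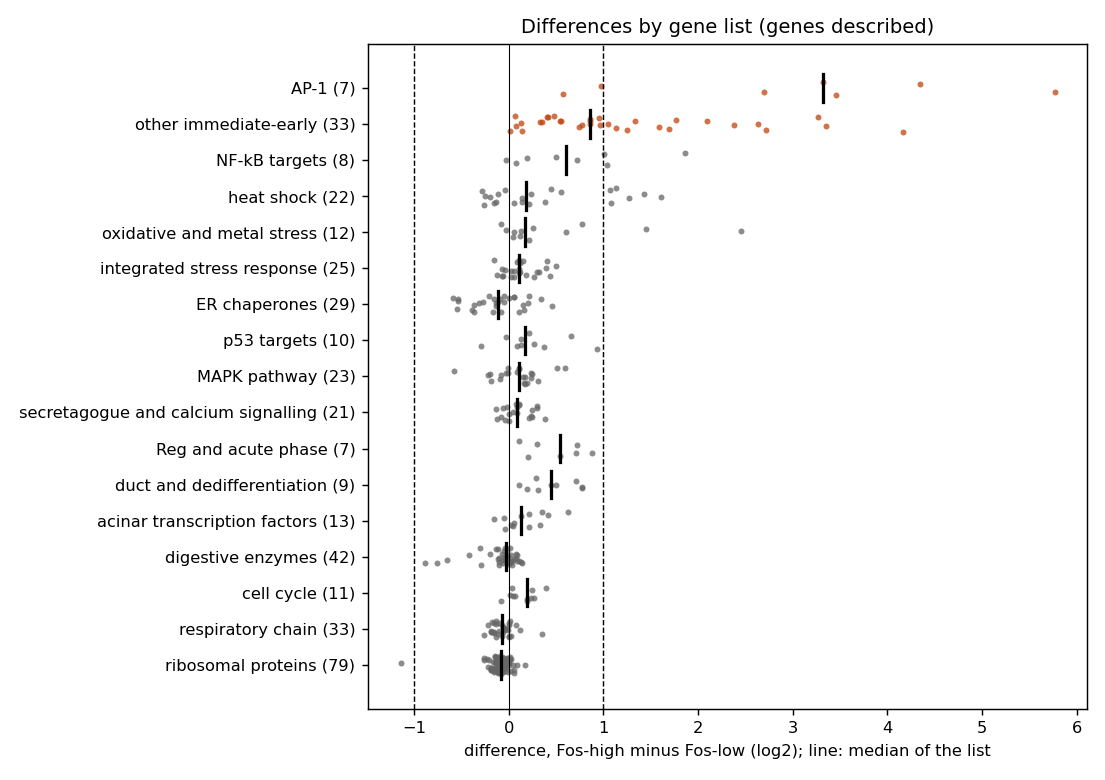
Difference of mean log2(TPM + 1), Fos-high minus Fos-low, for every described gene of 17 lists, with the number described in brackets, the median of each list as a black line and 2-fold as dashed lines. The AP-1 and other immediate-early lists, in orange, lie at medians of 3.32 (with Fos) and 0.86, and most of the remaining lists lie around 0.

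The digestive enzymes had a median difference of −0.03. Of 42 enzyme genes described, 27 were below 0, against 2722 of all 7227 genes, and none was 2-fold higher or lower, which is near the shares over all genes (0.775% and 0.0415%). The lowest were Prss1 (−0.88) and the elastase Cela3a (−0.75), which within cells 49 to 91 differed by −1.60 and −1.25. Prss2 was 75200, 103490 and 118947 TPM in Fos-high cells and 77722, 101949 and 122132 TPM in Fos-low cells. Digestive enzymes took a median of 88.9% of TPM in Fos-high cells (83.8% to 93.4%) and 88.9% in Fos-low cells (84.8% to 91.3%). Of 13 acinar transcription factors described, none was past 2-fold, again near those shares. Ptf1a, which specifies acinar cells, was 3.58, 11.6 and 38.2 TPM in Fos-high cells and 3.07, 11.9 and 27.1 TPM in Fos-low cells. No gene of the integrated stress response (25 described), p53 target (10), MAPK pathway (23), secretagogue and calcium signalling (21), cell cycle (11) or respiratory chain (33) list was past 2-fold in either direction, counts that are near the shares over all genes. Within sets of cell numbers some of their genes were past 2-fold. The p53 target Cdkn1a, an inhibitor of cyclin-dependent kinases, differed by 0.66 over all cells, by 2.30 within cells 1 to 48 and by 1.15 within cells 49 to 91. Of the 11 cell cycle genes, 5 were 2-fold higher within cells 1 to 48, against 2.95% of all genes, and 0 within cells 49 to 91. The Fos-high side of cells 1 to 48 holds only 5 cells, and 1 of them is cell 40. It had 108.72 TPM of the proliferation gene Stmn1, against a median of 1.63 TPM over those 5 cells. How far cell 40 carries the count of cell cycle genes was not tested. Nupr1, a stress-induced chromatin protein that is abundant in acinar cells, differed by 0.50.

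The ER chaperones had a median difference below 0 over all cells and above 0 within sets of cell numbers. Of 29 described, 19 were below 0, against 2722 of all 7227 genes, and the median difference was −0.11. Hspa5, which encodes the chaperone BiP, had medians of 94.3 TPM in Fos-high cells and 131 TPM in Fos-low cells, a difference of −0.39, and the ubiquitin ligase Syvn1 differed by −0.59. Within cells 1 to 48, 25 of 29 were above 0 (median 0.21), as were 5772 of all 7227 genes (median 0.26). Within cells 49 to 91, 18 were above 0 (median 0.17), as were 4960 of all genes (median 0.14). Both counts are near the shares over all genes. Hspa5 differed by 0.36 and −0.11 within these sets. Hspa5 had a median of 50.95 TPM over the 21 cells numbered from 92 on, against 105.96 TPM over cells 1 to 48 and 110 TPM over cells 49 to 91, so the pooled difference cannot be told apart from the uneven draw.

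All 9 described genes of the duct and dedifferentiation list were above 0, against 4505 of all 7227 genes, with a median of 0.45. None was 2-fold higher over all cells, but 5 were within cells 1 to 48, against 2.95% of all genes, and 2 within cells 49 to 91, against 1.13%. Krt8 (0.78) and Krt18 (0.50), the keratin pair of simple epithelia, and Krt19 (0.71), a keratin of ducts, were among them. Krt19 differed by 1.13 and 1.12 within the sets, and the list's median was 1.08 for cells 1 to 48 and 0.64 for cells 49 to 91. All 7 described genes of the Reg and acute phase list were above 0 over all cells, with a median of 0.54, but the median was 0.29 within cells 1 to 48 and 0.05 within cells 49 to 91, where the median of all genes was 0.26 and 0.14. Reg2, a secreted protein of the regenerating islet-derived family, was 0, 155 and 5704 TPM in Fos-high cells and 0.33, 43.1 and 4099 TPM in Fos-low cells, a difference of 0.88. That difference was 0.81 within cells 1 to 48 and −0.26 within cells 49 to 91, where the median over all cells of the set was 982 TPM, against 16.2 TPM over cells 1 to 48. The bound after cell 48 was set with the Reg levels known, so this contrast between the sets is part of how they were drawn.

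Few genes were lower. The 3 past 2-fold were Rpl38-ps2, a ribosomal protein pseudogene (−1.43), Gm25745 (−1.22) and Rps12, a small-subunit ribosomal protein gene (−1.14). None of the 3 had differences of the same sign beyond 2-fold in both sets of cell numbers: they were −2.06 and 0.54 for Rpl38-ps2, −0.77 and −2.20 for Gm25745, and 0.08 and −2.16 for Rps12 (cells 1 to 48, then cells 49 to 91). The other 78 ribosomal protein genes stayed within 2-fold, with a median of −0.08 over all 79. Among genes lower in both sets, Prss1, a cationic trypsinogen, had medians of 24.0 TPM in Fos-high cells and 50.2 TPM in Fos-low cells, a difference of −0.88 (−1.42 and −1.60 within the sets). Its reads can be shared with other trypsinogen copies, so the value is uncertain. Csnk2b, the regulatory subunit of casein kinase 2, had medians of 11.6 TPM in Fos-high cells and 16.8 TPM in Fos-low cells (−0.75). Hagh had the lowest correlation with Fos over all cells, at rho −0.34, followed by Cnpy3 (−0.33) and Csnk2b (−0.32).

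Short noncoding RNAs and nuclear transcripts made up part of the 56 higher genes. Snord118, the U8 small nucleolar RNA, had medians of 170 TPM in Fos-high cells and 0 in Fos-low cells, but was detected in 17 Fos-high cells and 10 Fos-low cells, with 751 TPM in the highest Fos-low cell. Rnu3b1, Rnu3b2, Rnu3b3 and Rnu3b4, copies of the U3 small nucleolar RNA, carry identical values and count as 4 of the 56 (1.13). Malat1, a long nuclear RNA, was 212, 461 and 1147 TPM in Fos-high cells and 0, 334 and 766 TPM in Fos-low cells, a difference of 1.24. In 3 of the cells with Fos at 0, cells 48, 41 and 31, Malat1 was 0, 0.14 and 2.29 TPM, the lowest of all cells. Without the 6 cells the Malat1 difference was 0.34.

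The differences of the 56 higher genes are also given within sets of cell numbers, whose cells are among those that chose the 56, so their direction there is largely fixed by the choice. All 56 were above 0 within cells 1 to 48, as were 5772 of all 7227 genes, and 51 of them were at least 2-fold higher, against 213 of all genes (2.95%). All 56 were above 0 within cells 49 to 91 as well, as were 4960 of all genes, and 45 were at least 2-fold higher, against 82 of all genes (1.13%). In both sets, 42 were past 2-fold. The first set rests on 5 Fos-high cells and the second on 7 Fos-low cells, and the median difference of all genes was 0.26 in the first and 0.14 in the second. Atf3 differed by 5.11 and 4.23, Egr1 by 4.34 and 4.38, Jun by 3.82 and 2.83 and Mt2 by 2.92 and 2.28 (cells 1 to 48, then cells 49 to 91). Snord118, at 5.98 and 1.65, and Malat1, at 1.55 and 0.34, were less even. Over the 21 cells numbered from 92 on, rho with Fos was 0.88 for Atf3, 0.84 for Egr1, 0.82 for Fosb and 0.76 for Jun, and 0.20 for Mt2.

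**Figure D5:**
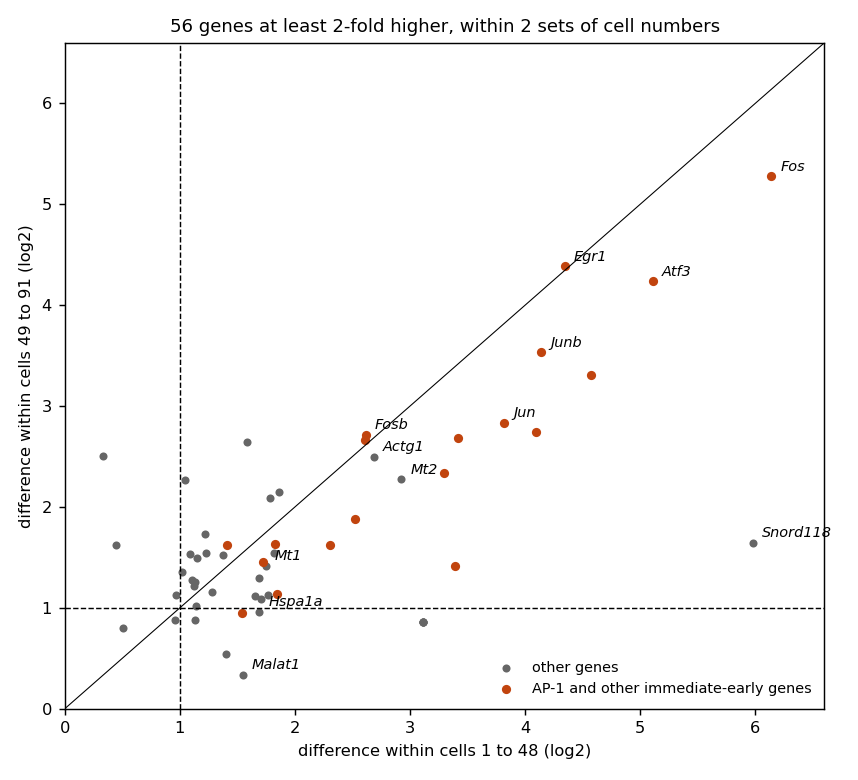
Differences of mean log2(TPM + 1), Fos-high minus Fos-low, of the 56 higher genes within cells 1 to 48 (horizontal; 5 Fos-high and 19 Fos-low cells) and within cells 49 to 91 (vertical; 13 Fos-high and 7 Fos-low cells). The line marks equal differences and dashed lines 2-fold; all points lie above 0 on both axes, Fos is highest on both, and Snord118 lies far to the right.

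The promoters of a few of these genes are shown because CRE and CArG elements are the textbook control sites of immediate-early genes. The RefSeq sequences (GRCm38.p6) run over the 200 bases before each transcription start, 5′ to 3′ on the gene's strand, with matched motifs in capitals. Fos (chr12:85473690-85473889, forward strand) and Atf3 (chr1:191183334-191183533, reverse strand, before a start inside the annotated gene span) hold CRE half-sites, TGACG or its complement CGTCA.
Fos: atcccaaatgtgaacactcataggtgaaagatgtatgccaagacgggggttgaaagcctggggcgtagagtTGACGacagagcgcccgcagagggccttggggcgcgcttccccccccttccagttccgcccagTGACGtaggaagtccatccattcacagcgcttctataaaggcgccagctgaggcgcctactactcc
Atf3: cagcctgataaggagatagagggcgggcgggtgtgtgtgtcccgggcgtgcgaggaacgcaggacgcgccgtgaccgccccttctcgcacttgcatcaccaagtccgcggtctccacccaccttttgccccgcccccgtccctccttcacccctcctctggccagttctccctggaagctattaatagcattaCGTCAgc
Dusp1 (chr17:26508473-26508672, reverse strand), Btg2 (chr1:134079156-134079355, reverse strand) and Ppp1r15a (chr7:45526269-45526468, reverse strand) are the 3 matched higher genes with a full CRE, TGACGTCA.
Dusp1: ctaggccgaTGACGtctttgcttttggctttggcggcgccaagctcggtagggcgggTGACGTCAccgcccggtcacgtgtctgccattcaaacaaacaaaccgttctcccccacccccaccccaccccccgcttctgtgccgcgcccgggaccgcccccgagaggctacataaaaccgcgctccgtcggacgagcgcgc
Btg2: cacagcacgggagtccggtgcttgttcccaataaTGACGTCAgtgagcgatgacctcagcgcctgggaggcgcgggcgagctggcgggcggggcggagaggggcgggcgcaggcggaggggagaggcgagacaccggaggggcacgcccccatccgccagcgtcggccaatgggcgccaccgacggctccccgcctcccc
Ppp1r15a: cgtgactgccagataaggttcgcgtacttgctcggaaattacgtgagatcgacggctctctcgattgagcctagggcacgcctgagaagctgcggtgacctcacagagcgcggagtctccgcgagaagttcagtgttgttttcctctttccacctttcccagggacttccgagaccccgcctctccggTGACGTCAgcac
Zfp36 (chr7:28379229-28379428, reverse strand) and Actg1 (chr11:120348496-120348695, reverse strand) each hold a CArG box.
Zfp36: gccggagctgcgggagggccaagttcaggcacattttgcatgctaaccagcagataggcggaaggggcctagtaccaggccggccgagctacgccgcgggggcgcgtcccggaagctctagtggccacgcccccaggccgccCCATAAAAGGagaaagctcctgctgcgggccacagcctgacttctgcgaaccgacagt
Actg1: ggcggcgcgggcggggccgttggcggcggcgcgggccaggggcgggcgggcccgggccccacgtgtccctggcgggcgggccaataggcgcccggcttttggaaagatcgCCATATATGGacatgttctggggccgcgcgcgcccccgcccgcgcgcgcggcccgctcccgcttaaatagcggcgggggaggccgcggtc

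Motifs were searched on both strands over 300 bases, from 250 before to 50 after each start. Sites further upstream were not searched, so a gene with no match here, such as Fos for the CArG box, is not shown to lack one. RefSeq windows matched 37 of the 56 higher genes and 5585 of the 7227 genes described, by symbol. Egr1 and Ier2 were not matched. A full CRE lay in 3 of 37 higher genes (8.11%), in 3.92% of the described genes and in 2.03% of all 27025 genes with a window. The half-site TGACG, which also counts within a full CRE, lay in 51.4% of the higher genes, 39.4% of the described genes and 23.05% of all genes with a window. The CArG box was in 3 higher genes, Zfp36, Actg1 and Egr2 (8.11%), in 1.65% of the described genes and in 1.81% of all genes with a window. The AP-1 site TGANTCA was in 2 higher genes, Mt2 and Zfp36l1 (5.41%), in 5.62% of the described genes and in 8.97% of all genes with a window. Genes with several windows count once where any window matched. A match is a stretch of letters and says nothing of binding in these cells.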

How the data were processed

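RNA of 108 single acinar cells was read as TPM, as deposited by the authors in 1 table of 45195 Ensembl gene rows, of which 44548 matched a symbol. Per the submitters' processing notes, the tools were RSEM 1.2.21, STAR 2.4.2a and edgeR, on mm10, in roles not given in the sources used here. The unit follows from the column sums. The labels say that 24 cells received spike-in RNA and not which. TPM are not counts, so no count model was used.

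Cells were ranked by Fos and the 27 highest set against the 27 lowest. Genes at or above 1 TPM in at least 11 cells were described by the difference of mean log2(TPM + 1), with a pseudocount of 1 TPM. With 1 labelled group there was no test. The members and lists were chosen with earlier results of these data known. The naming rule took Fos, Atf3, the 6 AP-1 and 8 other immediate-early genes of highest level, up to 4 genes of each other list by level and difference, the 15 highest and 15 lowest differences of one sign in both sets of cell numbers, the 10 highest and 5 lowest correlations with Fos, and Hspa5, Reg2, Ptf1a, Stmn1 and Prss2. Some genes that the rule names are not reported here. Other genes named, and single cells, were chosen after their values were seen. Alternatives covered pseudocount, filter, scaling, group size, sets of cell numbers, medians and left-out cells. The difference was tested on simulated data with known folds. The bound after cell 48 was set with the Reg levels of these cells known. Coordinates are from GENCODE M21. Python 3.11.15, pandas 2.3.3, numpy 2.4.6, scipy 1.17.1 and matplotlib 3.10.9 were used.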

Additional observations from a re-analysis of the deposited data

How the results depend on the processing

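The count of genes at least 2-fold higher, 56, was 270 with a pseudocount of 0.1 and 16 with one of 10, 87 with 18 cells per group and 31 with 36, and 33 after each gene was adjusted for the number of genes detected per cell. Under the other alternatives it lay between 39, without the 6 cells with Fos at 0 (an alternative chosen after seeing the data), and 73, with the 87 full-total cells only. The count of genes lower, 3, was 50 and 0 with those pseudocounts, 12 as a difference of medians, 1 with 36 cells per group, 5 with full-total cells only and 1 with groups drawn within each set of cell numbers. The median difference of all genes lay between −0.03 and 0.17. The 56 genes, chosen on the same cells, were above 0 under all these alternatives, except that 3 were not tested with a filter of 27 cells and that Rn7sk was at 0 as a difference of medians. Ranking by Fos after median-of-ratios scaling kept 26 of 27 cells in each group, and drawing groups within sets kept 20 of 27. No paired analysis was possible because all cells carry 1 label and no replicate numbers shared between groups.

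Read depth is unknown, and a gene listed at 0 is not shown to be absent. With no animal named, how far the range of Fos lies between cells of 1 animal, between animals or between preparations cannot be told apart.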

Other observations

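Cells 31 and 40 lie at opposite ends of the Fos ranking and share high proliferation genes. Stmn1, a microtubule regulator of dividing cells, was 108.72 TPM in Fos-high cell 40 and 107.55 TPM in Fos-low cell 31, against medians of 0.80 TPM in Fos-high cells and 0 in Fos-low cells. Cell 40 also had the most genes detected (6946) and 7 of 8 endothelial markers at or above 1 TPM. Without both cells, 45 of the 56 genes were at least 2-fold higher. Of the 27 cells with the most Hspa5, 6 were Fos-high and 11 Fos-low. Of the 27 with the most Reg2, 7 were Fos-high and 6 Fos-low.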
